A study of Mus musculus with 6 samples.

Results

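The proteins of the cytosolic ribosome were followed in the carotid body, the chemosensory organ at the carotid fork, of 2 inbred mouse strains. The members are all probe sets of an Affymetrix Mouse 430 2.0 array whose platform annotation gives a single gene symbol that begins with Rpl or Rps and a digit, or is Rpsa, Rplp0, Rplp1 or Rplp2. Rps6k kinases and pseudogene symbols were left out. The rule used names only, not measured values, and found 106 of 45101 probe sets, for 50 of the 18193 genes that the array names singly. Of these genes, 43 encode standard ribosomal proteins, 6 are paralogs of one, and Rps19bp1, which the rule takes in by its name, encodes a protein that binds Rps19 and the deacetylase Sirt1 and is no part of the ribosome. A further 110 probe sets carry such a symbol beside other names, mostly of pseudogenes, and were not members; 31 symbols, among them Rpl3, Rpl5 and Rplp1, appear only there.

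The arrays compare untreated A/J and DBA/2J males from the Jackson Laboratory, all at an age of 28 days, with 3 arrays for each strain. Every array holds total RNA of a pool: 20, 21 and 19 mice gave 40, 42 and 38 carotid bodies for A/J arrays 1, 2 and 3, and 19, 18 and 19 mice gave 38, 36 and 38 for the DBA/2J arrays. The spread quoted below is therefore between pools of mice, and nothing here speaks to single animals. In whole-organ RNA, fewer cells of a type and less RNA per cell cannot be told apart.

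A eukaryotic ribosome joins a small subunit, which reads the mRNA, to a large subunit, which forms the peptide bond, and each holds ribosomal RNA and one copy of most of its proteins. The large subunit also carries a flexible stalk, built on Rplp0 with Rplp1 and Rplp2, that recruits the elongation factors. Most ribosomal protein mRNAs start with a run of pyrimidines, the 5′ terminal oligopyrimidine tract, through which mTOR and Larp1 control their translation together. Some genes have a paralog with narrower expression, such as Rpl3l, which takes the place of Rpl3 in striated muscle.

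The stretches around the annotated transcription start are shown for the 2 members that passed the test and the 2 other genes with the largest difference among tested probe sets, since the pyrimidine tract is the feature by which these genes are known. Each is 30 bases, 15 before the start and 15 from it on, read 5′ to 3′ from the RefSeq promoter table (build GRCm38.p6), and the capitals mark its longest unbroken run of C and T.
Rpl14, chr9:120571502-120571531, plus strand: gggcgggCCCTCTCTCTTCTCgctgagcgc
Rps10, chr17:27635230-27635259, minus strand: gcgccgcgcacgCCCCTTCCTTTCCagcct
Rps3, chr7:99483695-99483724, minus strand: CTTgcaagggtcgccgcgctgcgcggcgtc
Rpl3l, chr17:24727811-24727840, plus strand: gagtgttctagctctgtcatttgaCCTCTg
The runs in Rpl14 and Rps10 are 14 and 13 bases long, that in Rpl3l is 5 and that in Rps3 is 3. RefSeq lists another start for Rpl3l, not shown. The table held a start for 44 of the 50 genes. Within 20 bases either side of the first listed start, 22 of 38 standard ribosomal protein genes (57.9%) held such a run of at least 7, against 24.2% of all 27025 starts. Over the 300 bases from 250 before the start to 50 after, and on both strands, the letters CTTTCC were in 44.7% of these 38 and 26.3% of all, CTCTTT in 36.8% and 22.9%, CCGGAAGT in 23.7% and 4.0%, and AAGATGG in 15.8% and 6.5%. The first 2 of these motifs can overlap each other. These are matches of letters in the reference strain, and not measurements of either strain used here.

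Of 20 genes of the type I cell of the carotid body, 19 had a probe set naming them alone and 18 were bright enough to test. The 19 took 0.171% to 0.198% of the total signal on the A/J arrays, against 0.326% to 0.365% on those of DBA/2J. Of the 18, 12 passed the test as higher in DBA/2J. Skeletal muscle genes took 0.197% to 0.516% on the A/J arrays, against 0.00805% to 0.016% on those of DBA/2J, and all 19 tested passed as lower. Of the other marker genes, 3 of 7 adipocyte, 2 of 8 type II and Schwann cell, 2 of 4 erythroid and 1 of 4 salivary, thyroid and parathyroid genes passed as lower. None of 8 endothelial, 3 lymphocyte or 8 cell division genes passed.

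The mRNAs of the cytosolic ribosome differed little between the strains. Of 106 members, 92 probe sets for 47 genes lay in the brighter 60% of the array and entered the test. In DBA/2J one of them was higher, Rpl14, a protein of the large subunit, and one was lower, the muscle paralog Rpl3l. Rpl3l was bright enough for the test only through A/J, with a mean log2 value of 9.08 there and 5.65 in DBA/2J against a limit of 7.02, so it could be tested only because it is high in that strain. Those 2 are 2.17% of the 92, while among all 27022 probe sets in the limma fit the adjusted p was under 0.05 for 3.27% (1.86% higher and 1.41% lower), so the share of members called was near that background. Counted once per gene by its brightest probe set, the same 2 of 47 genes passed, where 4.48% of all genes did (2.57% higher and 1.91% lower). An unadjusted limma p under 0.05 was reached by 6 of the 92 (6.52%) and by 15.3% of all. Rpl14 was the only higher one (7.89% of all), and Rpl3l, Rps3, Rps10, Rplp0 and Rps3a1 were lower (7.46%).

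Every log2 difference given here subtracts the A/J mean of log2(signal + 16) from the DBA/2J mean. The median over the 92 members was -0.10, with quartiles at -0.21 and 0.03, and 61 of the 92 (66.3%) were below 0. Over all probe sets tested the median was 0.01, with quartiles at -0.22 and 0.24, and 48.6% were below 0. Only 4 of the 92 (4.35%) differed by more than 1.5-fold, against 15% of all probe sets. The 95% interval of the difference lay within 1.5-fold either way for 40 of the 92 (43.5%), against 16% of all. For 80 of the 92 it lay within 2-fold. A smaller difference in those members is therefore not excluded, and for the remaining 12 a 2-fold one is not either. Many members were among the brightest probe sets of the array. None of these shares was matched for brightness, and the part of brightness in them was not tested.

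**Figure D1:**
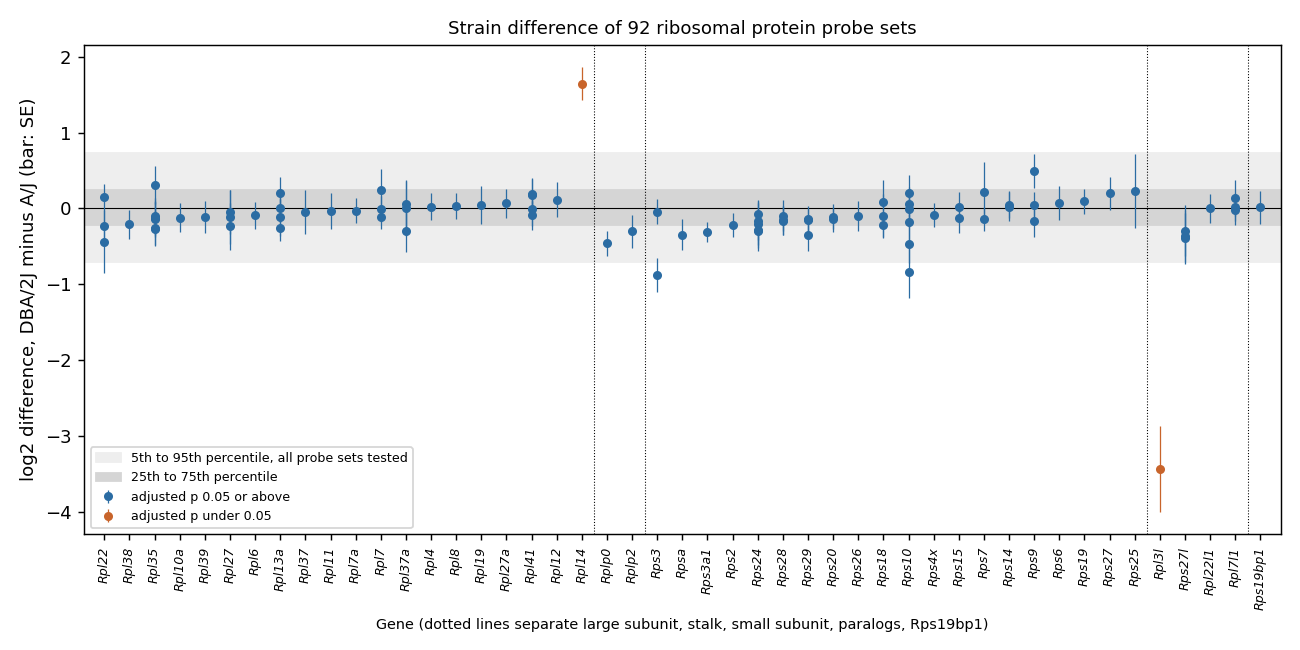
Log2 difference between the strains (y axis, in log2(signal + 16) units, above 0 where DBA/2J is higher; bars are the standard error) for 92 ribosomal protein probe sets, in a column for each gene on the x axis; grey bands give percentiles of all probe sets tested. Rpl14 at 1.65 and Rpl3l at -3.44 stand furthest outside the bands. A probe set each of Rps3 at -0.88 and Rps10 at -0.83 are the next in size, below the 5th percentile at -0.70.

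The sign of the median changed when 1 array was left out. DBA/2J array 3 held the lowest of the 6 values for 71 of the 92 members and DBA/2J array 2 the highest for 57. Measured from each probe set's own mean, the median member stood at 0.08, 0.07 and -0.02 on A/J arrays 1 to 3 and at 0.03, 0.25 and -0.41 on DBA/2J arrays 1 to 3. The same median over all probe sets tested ran from -0.02 to 0.06 over the arrays. The DBA/2J pools thus lay further from each other than the strains did. DBA/2J array 3 was also the dimmest at its bright end, with a 99th percentile of signal at 7759 where the other arrays had 9063 to 9718. Without that array the median member was at 0.06 and 29 of 92 were below 0, and without DBA/2J array 2 it was at -0.23 with 74 below 0. Quantile normalization, which gives every array the same distribution of signals, put it at 0.01 with 44 below 0. The part of the bright end in the median was not tested further. No direction for the family as a whole can be read from these values.

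**Figure D2:**
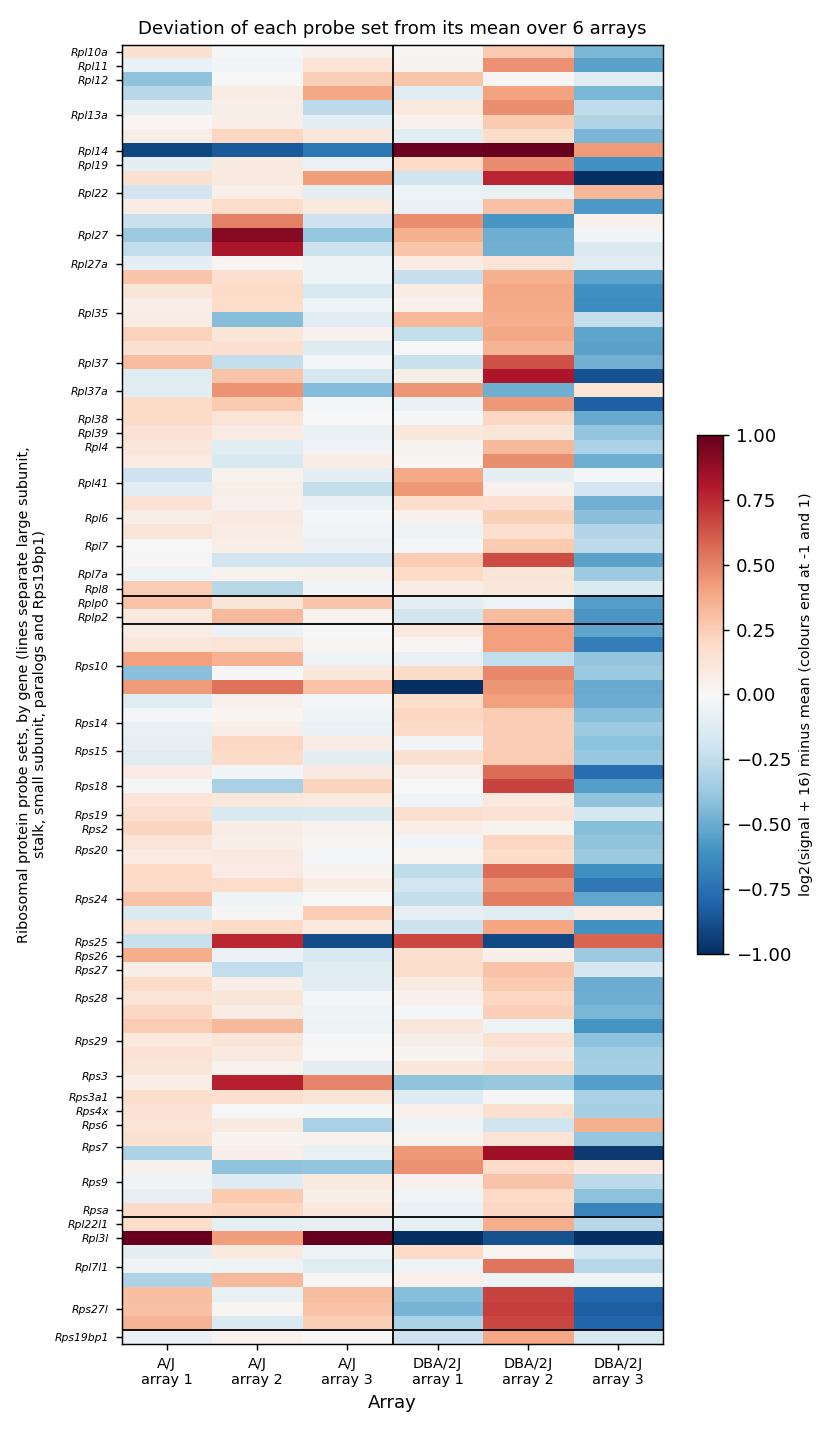
Deviation of 92 ribosomal protein probe sets (rows, grouped by gene and role) from their own mean over the 6 arrays (columns), in log2(signal + 16) units with colours ending at -1 and 1. DBA/2J array 2 is highest (red) in 57 rows and DBA/2J array 3 lowest (blue) in 71; Rpl14 and Rpl3l split by strain.

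Among proteins of the large subunit, 39 probe sets for 20 genes were tested, 15 of them above 0 and 24 below, with a median of -0.04. Rpl14, which sits on the solvent face of the subunit, was measured alone by probe set 1422128_at. Its signals were 385.4, 405.8 and 442.4 on the A/J arrays and 1470.6, 1565.7 and 999 on the DBA/2J arrays. Every DBA/2J pool was more than 2-fold above every A/J pool. Mean signal was 411 ± 28.9 for A/J against 1345 ± 303 for DBA/2J (SD, n = 3), a log2 difference of 1.65 (SE 0.22, 95% interval 1.15 to 2.14, limma adjusted p = 0.00422). It was 1.53 to 1.85 with any one array left out, and passed each time.

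The other probe sets of Rpl14 did not show this. There are 5, which the annotation gives to Rpl14 together with the pseudogene Rpl14-ps1, so they are not members; they were looked up after the value of Rpl14 was seen. Their log2 differences ran from -0.01 to 0.16, with limma adjusted p from 0.772 to 0.987. The 2 strains overlapped on each of them. One, 1438626_x_at, read 17016.6, 17174.1 and 16250.7 in A/J and 18598.8, 19785.1 and 12602.6 in DBA/2J. Rpl14 is therefore called on 1 probe set of 6, and whether the RNA, a part of it or the binding of the probes differs was not tested.

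None of the other 38 large-subunit probe sets passed, and only Rpl14 had an unadjusted p under 0.05. Their log2 differences ran from -0.44 for a probe set of Rpl22 to 0.31 for one of Rpl35. Rpl22, an RNA-binding protein of the subunit that T cell development needs, had probe sets at -0.44, -0.24 and 0.15. The first of these read 7572.5, 7270.4 and 9109.3 in A/J and 5945.7, 11565.9 and 2898.6 in DBA/2J, so its pools spread 4-fold within DBA/2J alone. Rpl35, at the exit of the peptide tunnel, had 6 probe sets, 5 of them between -0.27 and -0.10 and a dim one at 0.31. Rpl13a, which also takes part in the interferon-induced silencing of translation, ran from -0.25 to 0.20 over 4. Rpl7 was at -0.12, -0.01 and 0.25 and Rpl41, a peptide of very few residues, at -0.09 to 0.19. The rest lay between -0.30 and 0.12. Rpl37a had probe sets at -0.30, 0.00 and 0.06. Rpl38, which mouse skeletal patterning needs, was at -0.21 (SE 0.19), Rpl10a at -0.12, Rpl39, at the tunnel exit, at -0.11, and Rpl6 at -0.09. Rpl37, Rpl7a, Rpl4, Rpl8, Rpl19, Rpl27a and Rpl12 ran in that order from -0.04 to 0.12, and the 95% interval of each lay within 2-fold either way. The probe sets of Rpl27a and Rpl12 were far dimmer than the others, with mean signals of 287 and 372 in A/J. Rpl11, which holds back Mdm2 and so stabilises p53 when ribosome assembly fails, was at -0.03 (95% interval -0.56 to 0.50).

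In the stalk, Rplp0 read 16963.9, 15121.7 and 16869.8 in A/J and 13071.8, 13411.5 and 9476.1 in DBA/2J. The 3 DBA/2J pools were all below the A/J pools, with a log2 difference of -0.46 (SE 0.17), but it did not pass over all probe sets (limma adjusted p = 0.215). Rplp2 was at -0.30 (SE 0.22, adjusted p = 0.607), and its arrays overlapped. Rplp1 had no probe set of its own. Rplp0 is often used as a reference gene, and its 95% interval here ran from -0.84 to -0.08.

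Among proteins of the small subunit, 42 probe sets for 20 genes were tested, 13 above 0 and 29 below, with a median of -0.12, and none passed with limma, while 3 had an unadjusted p under 0.05. The largest differences among these tested probe sets belonged to Rps3 and Rps10, whose probe sets differed among themselves. Rps3, which lines the mRNA entry channel and also acts in DNA repair, read 608.2, 1006.4 and 821.2 in A/J and 436.1, 444.6 and 393 in DBA/2J on probe set 1455600_at. The strains did not overlap there (log2 difference -0.88, SE 0.22, limma adjusted p = 0.0765). On its other tested probe set, 1435151_a_at, Rps3 was at -0.04 (95% interval -0.41 to 0.33).

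Rps10, at the mRNA entry side of the small subunit, had 6 probe sets with log2 differences from -0.83 to 0.21. That was the widest range of any member gene over its tested probe sets. The lowest, 1439374_x_at, read 9119.1, 9882.3 and 8274 in A/J and 2971, 9209 and 4783.8 in DBA/2J, with DBA/2J array 2 among the A/J values (SE 0.34, adjusted p = 0.284). Without DBA/2J array 2 it was at -1.26 and passed (limma adjusted p = 0.0131). The median of the 92 members was -0.23 in that fit, and 4.95% of all probe sets passed. On 1438723_a_at at 0.21 and 1456497_x_at at 0.06, DBA/2J array 1 was above all A/J arrays. A dim probe set at -0.47, with the strains apart, and those at -0.18 and -0.01 did not pass either. A dim probe set of Rps9, a protein of the decoding region, read 245.8, 176.5 and 177.5 in A/J and 331.4, 273 and 256.6 in DBA/2J, with no overlap (log2 difference 0.50, SE 0.23, limma adjusted p = 0.342). Its other probe sets were at 0.05 and -0.16.

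Others of the small subunit lay closer to 0. Rps3a1 was at -0.31 (SE 0.13, unadjusted p = 0.0441, limma adjusted p = 0.305), with no overlap between the strains. Rpsa, which doubles as the laminin receptor, was at -0.34 (SE 0.21), and a dim probe set of it was not tested. Rps29 had 3 probe sets from -0.36 to -0.13. Rps7 had probe sets at -0.14 and 0.22, the second from 2527.4 to 8860 within DBA/2J alone. Rps24 ran from -0.30 to -0.08 over 5 tested probe sets, Rps28 from -0.16 to -0.10 over 3 and Rps20 at -0.14 and -0.11. Rps2 was at -0.22 (SE 0.16), Rps26 at -0.10, Rps15 at -0.13 and 0.01, Rps14 at 0.03 and 0.05, and the 3 tested probe sets of Rps18 ran from -0.22 to 0.08. Rps6, the target of the S6 kinases and the usual read-out of mTOR activity, was at 0.07 (95% interval -0.43 to 0.58). Rps19, the gene most often mutated in Diamond-Blackfan anaemia, an inherited failure of red cell production, was at 0.09 (95% interval -0.28 to 0.46). Of 19 listed genes of that disease, 11 had member probe sets that were tested, 32 in all, of which Rps10 and Rpl35 gave 6 each. Their median was -0.14, with 6 above 0 and 26 below. None passed, where 3.27% of all probe sets did. An unadjusted limma p under 0.05 was found in 1, and in 15.3% of all probe sets. Over all members tested the median was -0.10 and 66.3% were below 0, against 48.6% of all probe sets.

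Over the 92 members, the arrays of the strains did not overlap in 7 (7.61%), where 21.1% of all probe sets tested did not. Of the 7, Rpl14 and the dim Rps9 probe set were higher in DBA/2J (11.5% in all probe sets) and Rpl3l, Rps3, a dim Rps10 probe set, Rplp0 and Rps3a1 were lower (9.54%). The series states its own rule of 6 of 9 array pairs at 1.5-fold with p under 0.05. With the unadjusted limma p in place of its test, 4 members met it (4.35%; 10.1% of all probe sets), namely Rpl14, Rpl3l, Rps3 and Rps10.

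**Figure D3:**
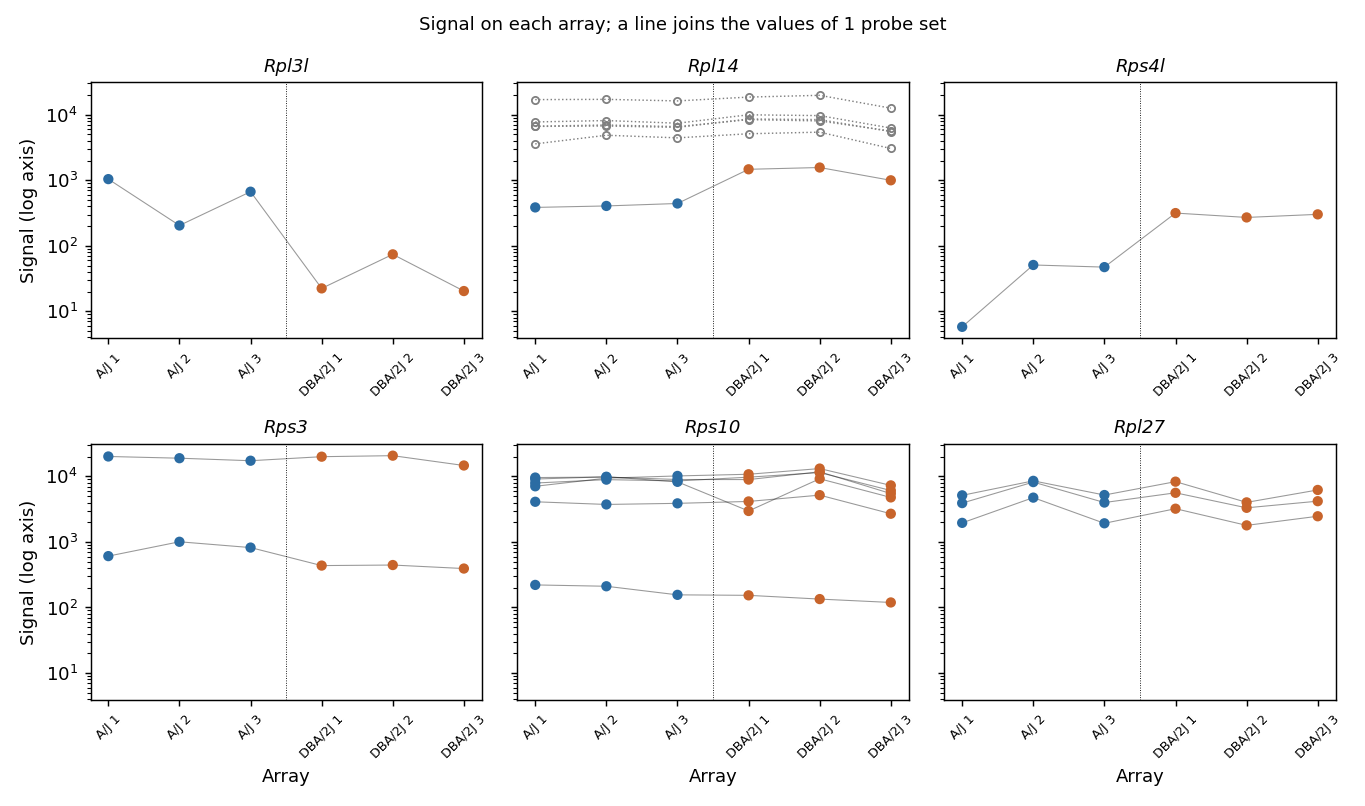
Signal on each of the 6 arrays (log axis) for probe sets of Rpl3l, Rpl14, Rps4l, Rps3, Rps10 and Rpl27; blue points are A/J, orange DBA/2J, a line joins 1 probe set, and open grey points are probe sets of Rpl14 shared with Rpl14-ps1. Rpl14 is at 999 or more in DBA/2J on its own probe set, while its shared probe sets are level, and Rpl27 is high on A/J array 2 and low on DBA/2J array 2.

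The paralogs held the largest differences of the family. Rpl3l, the muscle form of Rpl3, read 1041.5, 204.3 and 669.3 in A/J and 22.4, 74.1 and 20.4 in DBA/2J. Every A/J pool was above every DBA/2J pool, and the A/J pools differed 5-fold among themselves. Mean signal was 638 ± 419 for A/J against 39.0 ± 30.4 for DBA/2J (SD, n = 3), a log2 difference of -3.44 (SE 0.57, limma adjusted p = 0.0128). Rpl3 itself, which is named only together with pseudogenes and is no member, was at -0.05 (SE 0.16) on its bright probe set.

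Rpl3l moved with the markers of skeletal muscle. The 20 muscle genes made up 0.516%, 0.197% and 0.431% of the signal on A/J arrays 1 to 3 and 0.0084%, 0.016% and 0.00805% on DBA/2J arrays 1 to 3. The arrays stood in the same order for Rpl3l and for these genes, in both strains. DBA/2J arrays 1 and 3 were nearly level on both, with dim Rpl3l signals of 22.4 and 20.4, so their order says little. The part of the muscle genes in the difference of Rpl3l was not tested. With A/J array 1 or 3 left out, Rpl3l became too dim to be kept. With no filter it was at -2.95 (adjusted p = 0.103) and -3.27 (0.115) without them. Without DBA/2J array 1 it was at -3.24, with a limma adjusted p of 0.0678 under the filter and 0.119 with none, and without DBA/2J array 3 at -3.21, with 0.0498 and 0.11. It passed both ways without A/J array 2 (0.00355 and 0.00951) and without DBA/2J array 2 (0.00499 and 0.0221). With no filter it was at -2.14 (0.457) without both A/J arrays 1 and 3, which leaves a lone A/J pool.

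Rps4l, a gene named for its likeness to Rps4x, had the largest difference upward of any member but lay below the brightness limit for testing. Its mean log2 value was 5.5 in A/J and 8.28 in DBA/2J against a limit of 7.02. Filtered fits that kept Rps4l did so only through DBA/2J, where it is high. It read 5.8, 51 and 47.3 in A/J and 315.9, 271 and 302 in DBA/2J. The DBA/2J pools lay close together and over 5-fold above every A/J pool. With no filter on dim probe sets, where 1.82% of all passed, the log2 difference was 2.79 (SE 0.45, limma adjusted p = 0.0191). Its 95% interval ran from 1.77 to 3.80. Without DBA/2J array 1 or 3 the log2 difference was 2.74 and 2.77 and no longer passed (limma adjusted p 0.0957 and 0.081). Whether the A/J signals are above background is not known, as no detection calls were used here. Rps4x, the standard gene, was at -0.08 (95% interval -0.44 to 0.28).

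The remaining paralogs did not pass. Rps27l, a paralog of Rps27 that p53 induces, had 3 probe sets at -0.40, -0.36 and -0.30. On each, DBA/2J array 2 was the highest of all 6 arrays, and DBA/2J arrays 1 and 3 were the lowest: 1435429_x_at read 5208.9, 4322.4 and 5185.9 in A/J and 3090.1, 6877.5 and 2403.1 in DBA/2J. Without DBA/2J array 2 this probe set was at -0.84 and passed (limma adjusted p = 0.042). In that fit the median of the 92 members was -0.23, and 4.95% of all probe sets passed. Rps27 was at 0.20 (SE 0.22). Rpl22l1, the paralog that rises when Rpl22 is lost in mice, was at 0.00 (95% interval -0.44 to 0.44). Rpl7l1, which acts in assembly of the large subunit, had 3 probe sets from -0.02 to 0.14. Rpl39l, whose protein is best known from the testis, was too dim to be kept, at 50.4, 68.3 and 34.1 in A/J and 95.9, 145.4 and 76.6 in DBA/2J. Its strains did not overlap, and with no filter it was at 0.86 (limma adjusted p = 0.341). Rps19bp1 was at 0.02 (SE 0.21).

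Some members followed single pools more than strains. Rpl27, a large-subunit protein, had 3 probe sets that shared one pattern. On 1448217_a_at it read 1956.5, 4748.6 and 1927.1 in A/J and 3218.2, 1791.1 and 2467.9 in DBA/2J, so A/J array 2 was highest and DBA/2J array 2 lowest. The log2 differences of the 3 were -0.24, -0.11 and -0.05. Rps25, a small-subunit protein that viral internal ribosome entry sites need, was similar, with 741.3, 1476.3 and 462.4 in A/J and 1385.5, 456.8 and 1305.3 in DBA/2J. Its log2 difference was 0.23 (SE 0.49, limma adjusted p = 0.887), and 1.18 without the second array of each strain (adjusted p = 0.024). In that fit 7.93% of all probe sets passed. The second arrays also had the highest ratio of the 3′ to the 5′ control probe set of Gapdh within each strain, a sign of shortened RNA or product: 4.87 in A/J, where the others had 1.74 and 1.81, and 3.28 in DBA/2J, where they had 2.5 and 1.73. Its part in these patterns was not tested.

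Probe sets of 1 gene did not always give the same value. Names ending in _x_at, _s_at or _a_at mark probe sets in which some or all probes match other transcripts, of the same gene or of others, and 68 of the 92 were of these kinds. Their median log2 difference was -0.11, and none passed, with 2 at an unadjusted limma p under 0.05 (15.3% of all probe sets tested). The other 24 had a median of 0.02 and held both calls. In a fit without the shared kinds, 3 of 25 members passed (Rpl14, Rpl3l and Rps4l), and 3.16% of all 21649 probe sets. Rpl3l and Rps4l were bright enough only through the strain where they are high. Whether the kinds of probe set differ was not tested. Of the 20 genes with several tested probe sets, the range over a gene's probe sets was 1.04 in Rps10, 0.84 in Rps3, 0.66 in Rps9, 0.59 in Rpl22 and 0.58 in Rpl35. It was 0.03 in Rps20 and in Rps14. Ribosomal proteins have many processed pseudogenes in the mouse, so signals of such probe sets may hold RNA of more than 1 locus.

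The 14 members too dim to be kept belong to 11 genes: Rpl27a, Rpl39l, Rps16, Rps18, Rps20, Rps24, Rps3, Rps4l, Rps4x, Rps6 and Rpsa. Rpl39l, Rps16 and Rps4l had no other member probe set. Apart from Rps4l, none had a limma adjusted p under 0.05 when fitted with no filter. One of Rps18 read 4.2, 2.8 and 6.4 in A/J and 40.3, 53.8 and 5.5 in DBA/2J, with DBA/2J array 3 among the A/J values (log2 difference 1.10, adjusted p = 0.301). One of Rps6 was at -0.96 (adjusted p = 0.305), with the strains apart, while the tested one was at 0.07.

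Few of the genes that build, feed and regulate the ribosome passed the test. Log2 differences of those that did not pass ran from -0.90 for Utp18 to 0.91 for Mycn. Their standard errors reached 0.65, so a difference in them is not excluded. Of 141 tested genes of translation, ribosome assembly, RNA polymerase I and mTOR signalling, 1 rose (0.709%) and 0 fell, where 4.48% of all 13006 genes passed. An unadjusted limma p under 0.05 was found in 16 of the 141 (11.3%) and in 17.4% of all genes. The median log2 difference was 0.01, and 0.03 over all genes. The 47 member genes had a median of -0.09. The gene that rose was Rps6ka6, the kinase RSK4, with a mean signal of 208 ± 80.3 for A/J against 980 ± 140 for DBA/2J (SD, n = 3; log2 difference 2.21, limma adjusted p = 0.00268). Its other probe set also passed, at 1.23 (adjusted p = 0.0182). Its name recalls Rps6, but RSK kinases act in the ERK pathway and are no ribosomal proteins.

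None of 15 elongation genes passed with limma, with 1 (6.67%) at an unadjusted p under 0.05 and a median of -0.13. Eef1a1, which brings aminoacyl-tRNA to the ribosome, was at -0.11 (SE 0.15), and Eef2, which moves it along the mRNA, at 0.03 (SE 0.18). Of 32 initiation genes none passed and 4 (12.5%) had an unadjusted p under 0.05, among them Eif2b2 at 0.67 (adjusted p = 0.0678) and Eif3a at -0.57 (0.0959). Of 62 assembly genes none passed and 6 (9.68%) had an unadjusted p under 0.05, and of 12 genes of RNA polymerase I none passed either threshold. Npm1, the nucleolar chaperone of assembly, was at 0.26 (SE 0.17). Among 19 tested mTOR and S6 kinase genes, 5 had an unadjusted limma p under 0.05 (26.3%, and 17.4% over all genes). Besides Rps6ka6 these included Mycn, at 0.91 (adjusted p = 0.0679), and Eif4ebp1, the repressor of cap-dependent initiation that mTOR phosphorylates, at -0.89 (0.0949). Fau, which encodes the small-subunit protein eS30 behind a ubiquitin-like part, was at -0.16 (SE 0.24), and Rack1 had no probe set naming it alone. Of 76 mitochondrial ribosomal protein genes, 0 rose and 3 fell (3.95%, and 1.91% over all genes). Their median was -0.19, with 53 below 0 (69.7%, and 47% over all genes) and 23 above; whether that differs from the cytosolic proteins was not tested.

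**Figure D4:**
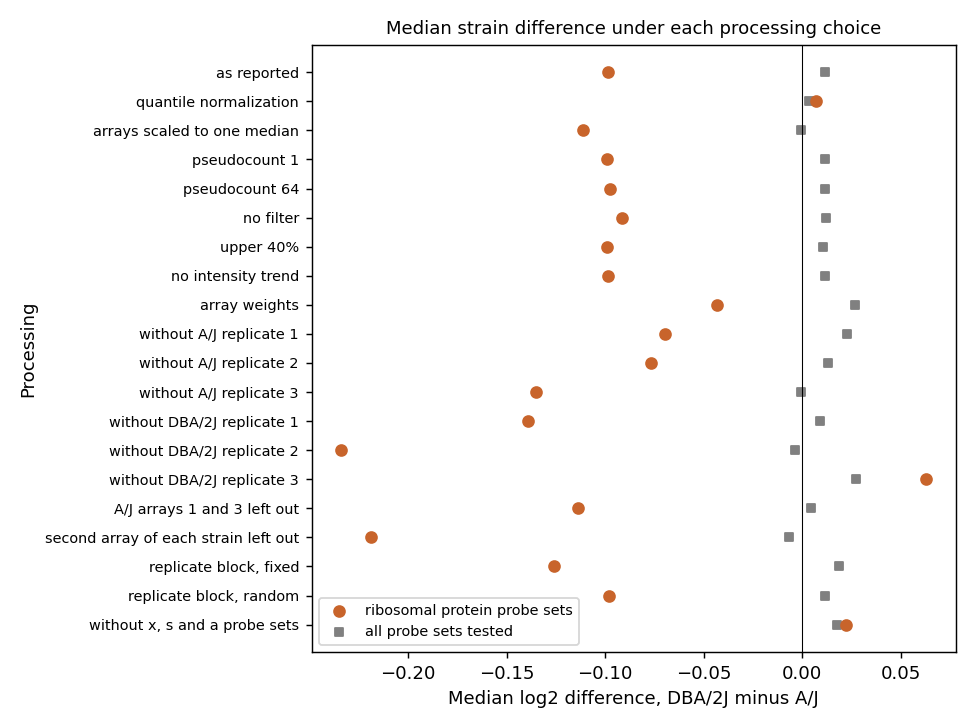
Median log2 difference (x axis, above 0 where DBA/2J is higher) of the ribosomal protein probe sets (orange circles) and of all probe sets tested (grey squares) under each processing choice (y axis). The ribosomal median runs from -0.23 without DBA/2J array 2 to 0.06 without DBA/2J array 3, while that of all probe sets stays between -0.01 and 0.03.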

How the data were processed

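The authors' deposited values are linear intensity signals of 45101 probe sets on 6 arrays. Per the labels' protocols, Trizol RNA went through 2 rounds of cDNA synthesis and in vitro transcription. Which software made the signals is not given in these sources. Each array's mean after trimming 2% at both ends is 500, so arrays were scaled before deposit and were normalized no further here. Gene symbols come from GEO's annotation of the platform and a RefSeq table (GRCm38.p6): 34945 name 1 gene, 932 several, and 9160 are unnamed here.

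After leaving out 64 control probe sets, log2(signal + 16) was taken, and the upper 60% by mean (27022 probe sets, 13006 genes) were kept. DBA/2J minus A/J was fitted in R 4.3.3 with limma 3.58.1 (lmFit, eBayes with an intensity trend, no covariate, two-sided), with Benjamini-Hochberg adjustment over the whole table at 0.05. A gene's brightest single-name probe set stood for it. Errors after a log2 difference are standard errors. The number of arrays, 3 a strain, limits the precision. The fit was tested on simulated data. Figures were drawn with matplotlib 3.10.9.

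Members, lists and tests were chosen with earlier results of these data known. Named members are the genes called, paralogs, stalk genes, Rpsa, Rps27a and Rps19bp1. Among tested probe sets, they also include the 10 highest and 10 lowest in log2 difference, and the 5 genes whose probe sets disagree most. Rps27a and Rplp1 had no probe set of their own. Others named were chosen for their role or after their values were seen. Marker shares use each gene's brightest probe set. Alternatives are in the closing section. Nothing says what the number shared by array titles means, so arrays were not paired.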

Additional observations from a re-analysis of the deposited data

How the results depend on the processing

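Of the 2 ribosomal protein probe sets called, both passed with no intensity trend, no filter, or a pseudocount of 1 or 64. Both also passed with arrays brought to one median or by quantiles to one distribution. With a pseudocount of 64 or no filter Rps4l made 3, with 3.46% and 1.82% of all probe sets passing. In the others of these fits 2.87% to 3.26% of all passed. With the upper 40% kept the count was 1 probe set and 1 gene, as Rpl3l was no longer tested (3.96% of all probe sets passed). With 1 array left out it ran from 1 to 4 probe sets and 1 to 3 genes. The lowest was without DBA/2J array 1 (Rpl14) and the highest without DBA/2J array 2 (Rpl14, Rpl3l, Rps10, Rps27l). Of all probe sets, 1.28% and 4.95% passed in those 2 fits. Without A/J array 1 or 3 the calls were Rpl14 and Rps4l, with 1.53% and 1.47% of all probe sets passing. Rps4l was bright enough for those fits only through DBA/2J, where it is high. The count was 4 probe sets with array weights, adding Rps3 and Rps10. With those weights 11.1% of all probe sets passed, against 3.27% in the fit reported. It was also 4 by the series' rule. Without the second array of each strain it was 7 probe sets, of 5 genes, and 4 genes when counted by the brightest probe set (7.93% of all probe sets passed). Without A/J arrays 1 and 3, which leaves 1 A/J pool, it was 0 of either (limma, 5 at an unadjusted p under 0.05; 0.289% of all probe sets passed). Among the genes of translation, assembly, RNA polymerase I and mTOR signalling, 1 was called, Rps6ka6 of the mTOR and S6 kinase list. With one array left out the count was 1 or 2 (2 without DBA/2J array 2). It was 14 with array weights, 10 without the second arrays, 2 with the mean of a gene's probe sets and 8 by the series' rule. With the number shared by 4 array titles as a fixed replicate block, which leaves few degrees of freedom, 0 probe sets, 0 member genes and 0 companion genes passed (limma; 3 members at an unadjusted p under 0.05, and 0 of all 27022 passed). Rpl14 was then at 1.53 and Rpl3l at -2.76. As a random block it left the same 2 calls. Deviations of same-numbered arrays, the second and the third of each strain, correlated at -0.26 and 0.0351 across probe sets. Their 3′ to 5′ ratios of the Actb control were alike, at 5.87 in A/J and 5.31 in DBA/2J for the second and 2.36 and 2.38 for the third. The first arrays, which share no number, were also alike, at 3.43 and 3.39. Whether the number marks a shared batch is not known from these values. The median of the members ran from -0.23 to 0.06 with one array left out and was 0.02 over probe sets without shared probes. Of 41 named probe sets not called, 19 changed sign under some alternative. The alternatives with no filter and arrays left out, for Rpl3l and Rps4l, were chosen after seeing the data. Dim signals limit Rps4l, Rpl39l and Rpl3l in DBA/2J, whose folds depend on the pseudocount: Rpl3l was at -3.97 with 1 and -2.58 with 64.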
